A study of Rattus norvegicus with 8 samples.

Results

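Transcripts of the nuclear-encoded subunits of the 5 oxidative phosphorylation complexes were followed in the hypothalamus of female and male rats. Members were all non-control probes whose gene name on the array began with Nduf followed by a, b, c, s or v, with Uqcr, with Cox4 to Cox8 or with Atp5, or was Sdha, Sdhb, Sdhc or Sdhd. The rule found 87 of the 26583 gene names on the array, on 109 of its 30367 probes. Complex I had 43 genes on 56 probes, complex II 4 genes on 4 probes, complex III 7 genes on 10 probes, complex IV 16 genes on 18 probes, and complex V, the ATP synthase, 17 genes on 21 probes. Not every name is a subunit. Ndufaf1, Ndufaf2, Ndufaf3 and Ndufaf4 are assembly factors, Cox7a2l is a factor of respiratory supercomplexes, and 5 names (Ndufa13-ps, Ndufa10l1, Ndufb4l1, Cox6c1 and Atp5hl1) are copies or pseudogenes by their name. Cox4nb, Atp5s and Atp5sl are old names of genes that are not structural subunits, now called Emc8, Dmac2l and Dmac2. Ndufa4 is counted in complex I by its name, although its protein is now regarded as a subunit of cytochrome c oxidase.

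Oxidative phosphorylation takes place in the inner mitochondrial membrane. Complexes I and II pass electrons from NADH and succinate to ubiquinone, complex III passes them to cytochrome c, and complex IV, cytochrome c oxidase, to oxygen. Complexes I, III and IV pump protons while doing so, and the ATP synthase lets the protons flow back to make ATP, on which synaptic and neurosecretory activity depends. Some subunits are encoded in the mitochondrial genome, which was not analysed here.

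Total RNA came from the hypothalamus of 4 females in estrus and 4 males, all Sprague Dawley rats 3 to 4 months old that were housed individually, with no treatment named in the labels. Each of 4 two-colour Agilent arrays carried 1 female and 1 male, with females in Cy3 and males in Cy5 on arrays 1 and 3 and the dyes reversed on arrays 2 and 4. Samples are named by sex and array number. All females were in estrus, so sex and cycle stage cannot be told apart, and the bulk RNA cannot tell fewer cells of a type from less RNA per cell.

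The median net signal of a sample lay between 492.5 and 519 for Cy3 and between 146 and 269.5 for Cy5, with 0 saturated spots. Of the 109 member probes, 104 (95.4%) were well above background in all 8 samples, against 68.6% of all probes. The 9 spotted markers of cortex, hippocampus and striatum included 6 that could be tested, and the 11 markers of the hypothalamus were all tested, 9 of them well above background in every sample. Male 2 stood apart in the region markers. The dye means used here include every sample of that dye, so male 2 also shifts the deviations of the other Cy3 samples. Relative to the mean of the 4 samples in the same dye, the median log2 deviation of male 2 over the hypothalamus markers was -1.82, against -0.04 to 0.70 in the other 7 samples. Over the cortex, hippocampus and striatum markers it deviated by 2.07, against -0.81 to 0.34 in the others. Neuron markers deviated by 0.61 in male 2 and by -0.27 to 0.04 in the others, and oligodendrocyte markers by 0.33 against -0.23 to 0.07. Red cell markers were at -0.86 in male 2 and at 0.69 in female 2, the lowest and highest of the 8 samples. The cortical transcription factors Neurod6 and Neurod2 deviated by 2.61 and 1.30 in female 2, beside 4.50 and 4.10 in male 2. Results are therefore also given without replicate 2, which leaves out the array of female 2 and male 2. Other samples also had single markers far off. The choroid plexus gene Ttr deviated by 3.12 in male 4 and -2.35 in female 3, and the pituitary gene Tshb by 2.33 in male 4. The part of these tissue differences in any result below was not tested.

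The dye mattered more for these probes than the sex, and the sequences of some probes with a large dye effect are printed here. Whether their sequence bears on that effect was not tested. The first 4 sequences are the 60-base probes of members that were among the brightest in Cy3 relative to Cy5. The last is the first 30 bases of another Atp5l probe, and capitals mark the 20 bases that both Atp5l probes share. All are on the minus strand of rn4, per the file headers. Ndufs7 lies at chr7:10963975-10964034, the Ndufs5 probe within chr5:143017588-143020597 on separated stretches, Cox7a2 at chr8:84814091-84814150, and the Atp5l probes at chr8:47870116-47870175 and chr8:47870078-47870137. The files give no exon annotation for them.
Ndufs7 A_64_P139957: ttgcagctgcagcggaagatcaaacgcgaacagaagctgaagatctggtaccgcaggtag
Ndufs5 A_64_P139212: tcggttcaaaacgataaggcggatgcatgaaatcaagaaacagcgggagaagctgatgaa
Cox7a2 A_64_P071483: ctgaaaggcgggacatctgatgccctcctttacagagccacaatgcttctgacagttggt
Atp5l A_64_P372189: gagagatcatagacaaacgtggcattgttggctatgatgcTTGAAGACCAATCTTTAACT
Atp5l A_44_P271541: gtTTGAAGACCAATCTTTAACTtctgattt

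The question of the study for these genes is whether their transcripts differ between the sexes. No member passed the test. Of the 105 member probes (84 genes) bright enough to test, 0 reached an adjusted p under 0.05 in the limma fit, as did 0 of all 21995 probes tested (0%), and the lowest adjusted p among the members was 0.555. At an unadjusted p under 0.05 there was 1 member (0.952%), Ndufs7, against 8.5% of all probes. It was higher in females, as were 4.98% of all probes at that level, and 0 members were higher in males, against 3.52% of all probes. Without replicate 2 there were 3 members (2.86%), against 7.99% of all probes, with 0 past the adjusted threshold (0% of all probes). Of these, Ndufs7 was higher in females (4.17% of all probes) and Ndufa7 and Cox5a were higher in males (3.82% of all probes). Untested for dim signal were Ndufaf2, the pseudogene Ndufa13-ps, 1 of the 2 Cox6c1 probes and the testis isoform Cox8c.

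Differences between the sexes were small as well as uncertain. A log2 ratio above 0 means a higher level in females throughout, and its error is the standard error of the fit over 4 arrays. With 1 replicate left out, 1 array is alone in its dye orientation and is fitted exactly. The error then rests on the arrays of the other orientation and on the spread shared across probes. The median log2 ratio of the 105 probes was 0.06, beside 0.02 over all probes and 0.04 over the 3295 other probes of similar brightness. The SD over probes was 0.12 for members and 0.20 for all. No member was past 1.5-fold in either direction, against 1.75% of all probes. For 100 members (95.2%) the 95% interval of the ratio lay wholly within 1.5-fold, against 82.1% of all probes. The 5 exceptions, named after their values were seen, were Ndufa7, 1 probe each of Ndufs4 and Ndufv3, the muscle-type subunit Cox6a2, and Atp5b, which encodes the catalytic beta subunit of the ATP synthase.

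Of the member probes, 73 (69.5%) had an estimate above 0, against 56.1% of all probes and 58.9% of the 3295 other probes of similar brightness. This lean was lost without the array of female 2 and male 2, and the share of members above 0 was smaller under some other settings. Without replicate 2, 60 of 105 (57.1%) were above 0, against 57.4% of all probes, and the median was 0.0076, beside 0.021 over all. Without replicate 1, 64 (61%) were above 0, against 54.1% of all probes, and the median was 0.034. Without replicates 3 and 4 in turn, 73 (69.5%) and 69 (65.7%) were, against 57.1% and 54.1%. Median centring in place of loess gave 64 (61%), against 53%. In the authors' deposited table, 53 of 99 (53.5%) were above 0, against 38%, a lower share that was no closer to that of all probes. In the levels of female 2, 78 of the 105 probes (74.3%) lay above the mean of their dye, against 54.9% of all probes. Of the samples that share its dye, female 4 had 50.5%, male 1 29.5% and male 3 38.1%. In the other dye, female 1 had 62.9%, female 3 34.3%, male 2 45.7% and male 4 57.1%. Per-array medians of the members were 0.05, 0.07, 0.02 and -0.03 for arrays 1 to 4, an SD of 0.04 that is close to their size.

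**Figure D1:**
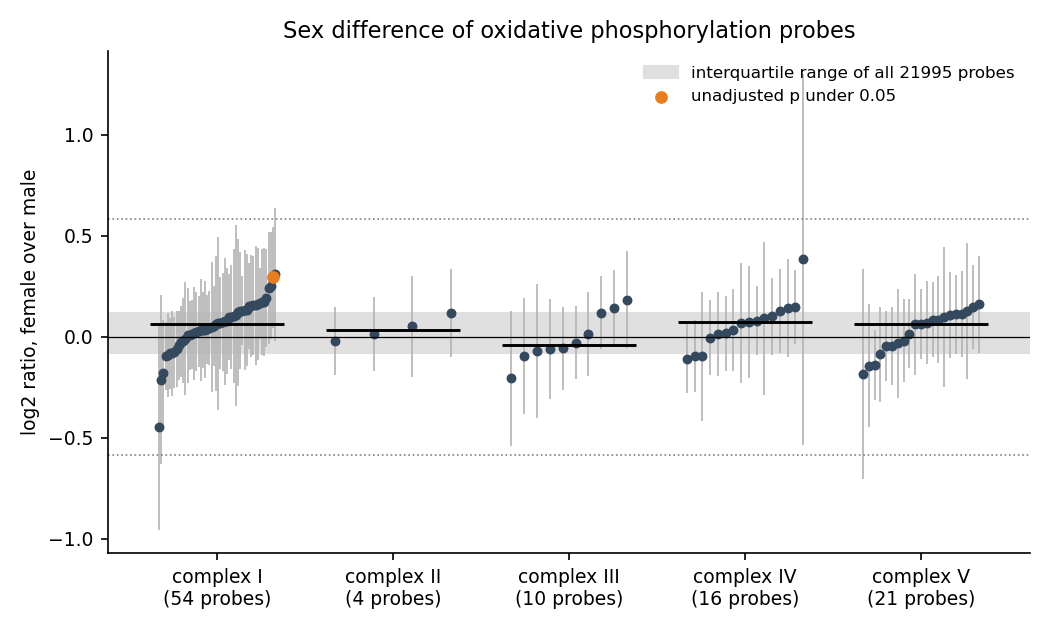
Each point is the fitted log2 ratio, female over male, of 1 tested member probe, with its 95% interval as a grey line (n = 4 arrays), sorted within each complex along the x axis. Black bars are complex medians (0.07, 0.03, -0.04, 0.07 and 0.06 for I to V), the grey band is the interquartile range of all 21995 probes, dotted lines mark 1.5-fold, and only Ndufs7, in orange, had an unadjusted p under 0.05.

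Complex I takes electrons from NADH in a peripheral arm that carries flavin and iron-sulphur clusters. Its 54 tested probes had a median of 0.07, with 41 of 54 above 0. Without replicate 2 the median was 0.0057, with 30 of 54 above 0. Ndufv1, the flavin- and NADH-binding subunit, had a log2 ratio of -0.06 ± 0.07, its partner Ndufv2 0.01 ± 0.06, and the large iron-sulphur subunit Ndufs1 0.01 ± 0.09. Ndufs3 had a ratio of -0.02 ± 0.06 and the iron-sulphur subunit Ndufs8 0.04 ± 0.06.

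Ndufs7, the core subunit that holds the last iron-sulphur cluster before ubiquinone, had levels of 13.56, 12.63, 13.93 and 13.01 (log2) in females 1 to 4. In males 1 to 4 they were 12.07, 13.75, 12.40 and 13.74. The sexes overlapped, and every sample in Cy3 was above every sample in Cy5. The within-array log2 ratios were 1.5, -1.12, 1.53 and -0.72, positive wherever the female was in Cy3. With the dye effect of -1.22 ± 0.09 (Cy5 over Cy3, dye adjusted p = 0.0218) taken out, the sex ratio was 0.29 ± 0.09 (limma unadjusted p = 0.0297, adjusted p = 0.555). It was 0.39 ± 0.07 without replicate 2 (unadjusted p = 0.0049, adjusted p = 0.598) and 0.19 ± 0.07 without replicate 4 (unadjusted p = 0.0487, adjusted p = 0.166). Without replicate 1 or 3 it was 0.30 ± 0.14 or 0.29 ± 0.14, at unadjusted p-values of 0.114 and 0.128. With replicate 2 or 4 left out, the residual compares only arrays 1 and 3, at 1.5 and 1.53.

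Among the accessory subunits of complex I, Ndufa7 had the lowest ratio and was dim. Its levels were 7.23, 6.98, 6.65 and 6.88 in females and 7.37, 7.01, 7.61 and 7.54 in males. The ratio was below 0 on all 4 arrays (-0.14, -0.03, -0.96 and -0.66), but the sexes overlapped and the fitted value of -0.45 ± 0.19 did not pass (adjusted p = 0.555). It was -0.61 ± 0.19 without replicate 2 (unadjusted p = 0.0346) and -0.65 ± 0.18 without replicate 1, but -0.24 ± 0.18 without replicate 3 and -0.29 ± 0.19 without replicate 4. Such a run of 1 sign over the 4 arrays was seen for 8 members (7.62%), against 11.1% of all probes. Ndufa8, a twin-cysteine subunit of the complex, was also below 0 on every array, with a fitted ratio of -0.10 ± 0.06.

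Ndufa12, an accessory subunit of the peripheral arm, had levels of 13.70, 14.07, 13.38 and 13.87 in females and 13.67, 13.30, 13.52 and 13.51 in males. Its ratio was 0.25 ± 0.10 and fell to 0.15 ± 0.08 without replicate 2. Ndufb8, a subunit of the membrane arm, had levels of 16.33, 16.34, 16.20 and 16.17 in females and 16.13, 16.05, 16.10 and 16.15 in males. All females were above all males, by 0.15 ± 0.08, which the test did not pass at an adjusted p of 0.555. Without replicate 2 the Ndufb8 ratio was 0.086 ± 0.072.

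The assembly factor Ndufaf3 had a ratio of 0.17 ± 0.06 (unadjusted p = 0.0592). Its levels in males 1, 3 and 4 were 12.32, 12.33 and 12.33, and male 2 was apart at 11.58. Females ranged from 11.99 to 12.62, so the sexes overlapped. Ndufaf1 had a ratio of -0.02 ± 0.08, and the 4 probes of Ndufaf4 ran from -0.18 to 0.03. The Ndufaf4 probe at 0.03 had levels of 9.26 to 10.40. Its other probes, all below 0, were dim at 6.53 to 7.26.

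Complex II is succinate dehydrogenase, which also serves the tricarboxylic acid cycle and has no mitochondrially encoded subunit. Its 4 genes had a median of 0.03. Sdha, the flavoprotein that oxidises succinate, had levels of 14.55, 14.78, 14.59 and 14.70 in females and 14.82, 14.60, 14.71 and 14.43 in males. The sexes overlapped fully and the ratio was 0.02 ± 0.07. Sdhb, the iron-sulphur subunit, was above 0 on all 4 arrays (0.01, 0.35, 0.06 and 0.05), with most of the difference on array 2, where male 2 had the lowest level of the 8, 13.15. Its ratio was 0.12 ± 0.08, and 0.04 ± 0.07 without replicate 2. The membrane anchors Sdhc and Sdhd had ratios of 0.05 ± 0.09 and -0.02 ± 0.06.

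Complex III moves electrons from ubiquinol to cytochrome c. It was the only complex with a median below 0 in this fit, at -0.04 over 10 probes, 4 of them above 0, although complex II was also below 0, at -0.02, in the authors' value table. Without replicate 2 the median changed sign to 0.027, with 8 of 10 above 0. In male 2 the median deviation of complex III from the Cy3 mean was 0.21, against -0.09 to 0.12 in the other 7 samples. In the same sample complex I deviated by -0.10, complex II by -0.09, complex IV by -0.0074 and complex V by 0.03.

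The small subunit gene Uqcr, now Uqcr11, was measured by 3 probes. The first (A_42_P456155) read 15.11, 15.01, 14.92 and 14.79 in females and 14.76, 15.59, 14.89 and 14.97 in males. Male 2 was the highest of the 8 on each of the 3 probes, at 15.59, 15.03 and 14.52, and the sexes otherwise overlapped. The ratios were -0.10 ± 0.11, -0.06 ± 0.09 and -0.07 ± 0.12. Uqcrc2, one of the large core proteins that face the matrix, was likewise highest in male 2, at 14.45, beside 13.68 to 13.93 in the other males and 13.51 to 14.07 in females. Its ratio was -0.21 ± 0.12, and -0.07 ± 0.09 without replicate 2. The partner core protein Uqcrc1 had a ratio of 0.01 ± 0.08 and the Rieske iron-sulphur protein Uqcrfs1 -0.06 ± 0.08.

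The bright probe of Uqcrb, a subunit next to the ubiquinone sites, read 15.03, 15.12, 14.93 and 15.02 in females and 14.89, 14.84, 14.92 and 14.89 in males. All females were above all males, the closest pair being 14.93 against 14.92. The ratio was 0.14 ± 0.07 (adjusted p = 0.555), and 0.10 ± 0.07 without replicate 2. The second Uqcrb probe had a ratio of 0.12 ± 0.07 with overlapping sexes. Uqcrq, a small neighbouring subunit that was dim here, had a ratio of 0.18 ± 0.09.

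**Figure D2:**
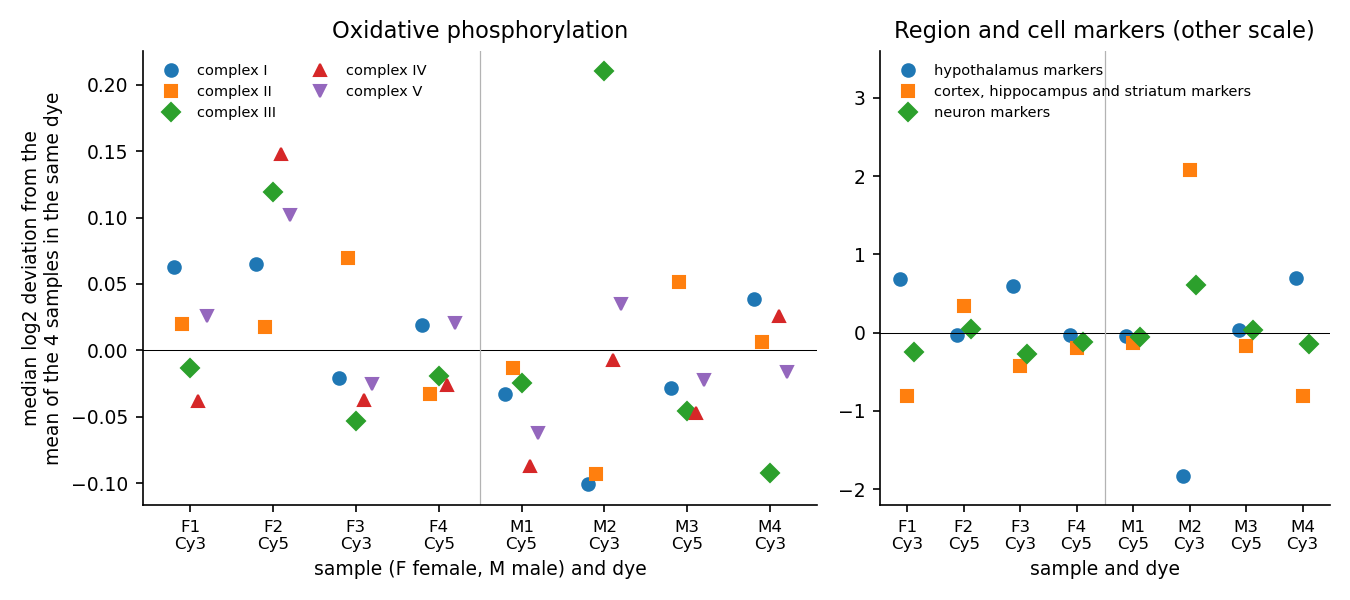
Median log2 deviation of each sample from the mean of the 4 samples in the same dye, over the tested probes of each complex (left) and over marker genes (right, on a wider scale), for females 1 to 4 and males 1 to 4. Male 2 is at 2.07 for cortex, hippocampus and striatum markers, -1.82 for hypothalamus markers and 0.21 for complex III, and female 2 is at 0.15 for complex IV.

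Complex IV reduces oxygen, and several of its small subunits exist as tissue isoforms. Its 16 tested probes had a median of 0.07, with 12 above 0. Without replicate 2 the median was -0.0046, with 8 above 0. The ubiquitous isoforms were near 0. Cox4i1, the general form of subunit 4, had a ratio of 0.04 ± 0.07, and Cox6a1, the general form of subunit 6a, -0.0038 ± 0.07. Cox4i2, the form best known from lung, was detected in all 8 samples at levels of 11.40 to 12.25 in females and 11.44 to 12.41 in males, with a ratio of 0.02 ± 0.08. Cox7a2 had ratios of 0.10 ± 0.07 and 0.07 ± 0.11 on its 2 probes.

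Cox6a2, the heart and muscle form that is also known from some brain interneurons, had the least certain ratio of the members. Its levels were 9.95, 10.57, 9.18 and 9.85 in females and 10.33, 8.40, 9.67 and 9.61 in males. Male 2 was the lowest of all samples and the sexes overlapped. The log2 ratio was 2.17 on array 2 and -0.38, -0.49 and 0.24 on arrays 1, 3 and 4, which gave a fitted 0.38 ± 0.34 (adjusted p = 0.652). Without replicate 2 it turned to -0.10 ± 0.07. Without replicate 4 it was 0.87 ± 0.07 at an adjusted p of 0.0316, and it was then the 1 member past the threshold (0.952%), when 6.78% of all probes passed. At an unadjusted p under 0.05, 25 members (23.8%) then passed, against 29.6% of all probes, 21 of them higher in females (20%, against 16.8%) and 4 higher in males (3.81%, against 12.9%). A fit on 3 arrays with terms for sex and dye has 1 residual degree of freedom. Without replicate 4, array 2 is alone in its dye orientation and is fitted exactly. The residual then compares only arrays 1 and 3, so that standard error leaves out the spread of array 2. It also leans on the spread shared across probes.

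Other isoforms did not pass the test either. Cox8a and the muscle form Cox8b had ratios of -0.10 ± 0.07 and -0.11 ± 0.06. Cox8b was dim, at levels of 6.77 to 7.22, and its ratio ran from -0.45 to -0.08 over the settings tried. Cox7c, a small subunit, had a ratio of 0.13 ± 0.08, with male 1 at 10.84 and the other males at 11.14 to 11.18. Cox5a, which binds the matrix face of the enzyme, had a ratio of -0.10 ± 0.12, which was -0.24 ± 0.07 without replicate 2 (unadjusted p = 0.025, adjusted p = 0.598) and 0.05 ± 0.07 without replicate 4. Cox7a2l, which joins complexes III and IV into supercomplexes, read 14.58, 14.48, 14.48 and 14.49 in females and 14.45, 14.39, 14.42 and 14.46 in males. All females were above all males, though only by a ratio of 0.08 ± 0.06. Together with Ndufb8 and 1 Uqcrb probe this made 3 members (2.86%) with all females above all males, against 1.21% of all probes. The reverse order was seen for 0 members, against 1.62% of all probes. Cox4nb, which is no subunit, was above 0 on every array with a ratio of 0.15 ± 0.07.

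The ATP synthase consists of a catalytic head, a rotor with a central stalk and a ring of c subunits, and a peripheral stalk with small membrane subunits. Its 21 probes had a median of 0.06, with 13 above 0, and 0.023 with 12 above 0 without replicate 2. The parts of the enzyme are given in turn. All 7 probes of the peripheral stalk and membrane part were above 0, from 0.06 to 0.16, with none past the test, where 56.1% of all probes were above 0. They were Atp5f1 (subunit b, 0.06 ± 0.06), Atp5h (subunit d, 0.11 ± 0.08), Atp5o (the oligomycin-sensitivity subunit, 0.09 ± 0.08), Atp5j (factor 6, 0.15 ± 0.08), Atp5i (subunit e, 0.13 ± 0.12) and the 2 probes of Atp5l (subunit g, 0.11 ± 0.08 and 0.16 ± 0.09). The per-array medians of these 7 probes were 0.19, 0.20, 0.01 and -0.02. The median of their fitted ratios was 0.11. It was 0.04 without replicate 1, with 7 of 7 above 0, and 0.08 without replicate 2, with 6 of 7 above 0.

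The catalytic head and central stalk had a median of -0.0073 over 6 probes, those of Atp5a1, Atp5b, Atp5c1, Atp5d and Atp5e. Atp5a1 (subunit alpha) had a ratio of -0.03 ± 0.10. Atp5b read 13.13, 12.82, 13.34 and 13.31 in females and 13.23, 13.70, 13.24 and 13.15 in males, with male 2 highest, and its ratio was -0.18 ± 0.19. Atp5c1, the gamma subunit of the central stalk, had a ratio of -0.14 ± 0.11. Without replicate 2 the median of the head and central stalk changed sign to 0.058, with 4 of 6 probes above 0. Atp5a1 was then 0.07 ± 0.09, Atp5b 0.08 ± 0.08 and Atp5c1 -0.0041 ± 0.07. The median of the head and central stalk was also above 0, at 0.014, without replicate 1.

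The c subunit is encoded by several genes whose mature proteins are the same. Atp5g1 had levels of 14.80, 14.56, 14.70 and 14.64 in females and 14.80, 14.91, 14.68 and 14.86 in males, a ratio of -0.14 ± 0.06 (unadjusted p = 0.0927). Atp5g2 had ratios of -0.05 ± 0.06 and 0.07 ± 0.08, and Atp5g3 0.11 ± 0.07 and -0.05 ± 0.07, each on 2 probes of opposite sign. The copies by name, Ndufa10l1, Ndufb4l1, Cox6c1 and Atp5hl1, may share signal with their parent genes, and their ratios ran from -0.08 to 0.12. Both Ndufa10l1 probes (chr9:91655487-91655546 and chr9:91676399-91676458) lay near the Ndufa10 probe (chr9:91654891-91654950) on the same strand. A separate copy is therefore not shown for them. Each had a ratio of -0.08, and Ndufa10 had 0.24 ± 0.10. Without replicate 2 they were -0.06 and -0.01, and Ndufa10 was 0.12 ± 0.07. Atp5s, which is no subunit, had a ratio of -0.09 ± 0.09.

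Females carry more copies of the X chromosome than males, and its members were examined for that reason. Ndufa1 had a ratio of 0.10 ± 0.09, Ndufb11 0.03 ± 0.06 and Cox7b 0.14 ± 0.09. Without replicate 2 they were -0.0012 ± 0.08, -0.0037 ± 0.07 and 0.05 ± 0.08.

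The dye of a sample moved the members more than its sex. The median size of the dye effect over the 105 probes was 0.18 on the log2 scale, beside 0.09 for the sex ratio, and the dye effect was the larger for 80 probes (76.2%), against 66% of all probes. For 56 members (53.3%, against 41.6% of all probes) the array ratio was positive on both arrays of one dye orientation and negative on both of the other. The dye effect passed an adjusted p under 0.05 for 17 members (16.2%), against 12.7% of all probes. Of these, 14 (13.3%, against 9.82%) were brighter in Cy3 and 3 (2.86%, against 2.89%) in Cy5.

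Brighter in Cy3 were, after Ndufs7, Ndufa9 at -1.04 ± 0.10, an accessory subunit near the ubiquinone site, and Ndufb6 at -0.98 in the membrane arm. Ndufa9 read 12.72 and 12.70 in females 1 and 3 and 11.70 and 11.86 in females 2 and 4. In males the order was reversed, with 11.66 and 11.68 in males 1 and 3 and 13.00 and 12.67 in males 2 and 4. Its sex ratio was nonetheless -0.0083 ± 0.10. Brighter in Cy5 were Cox4i2 at 0.63, Ndufa5 at 0.52 and 1 probe of Atp5g3 at 0.38. Cox6a2 had a dye effect of 0.82 that did not pass (adjusted p = 0.186). Over the 105 members, which share arrays and samples, the array ratios correlated at r = 0.86 for arrays 1 and 3 and r = 0.67 for arrays 2 and 4. Between arrays of opposite orientation r was -0.64 to -0.85.

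**Figure D3:**
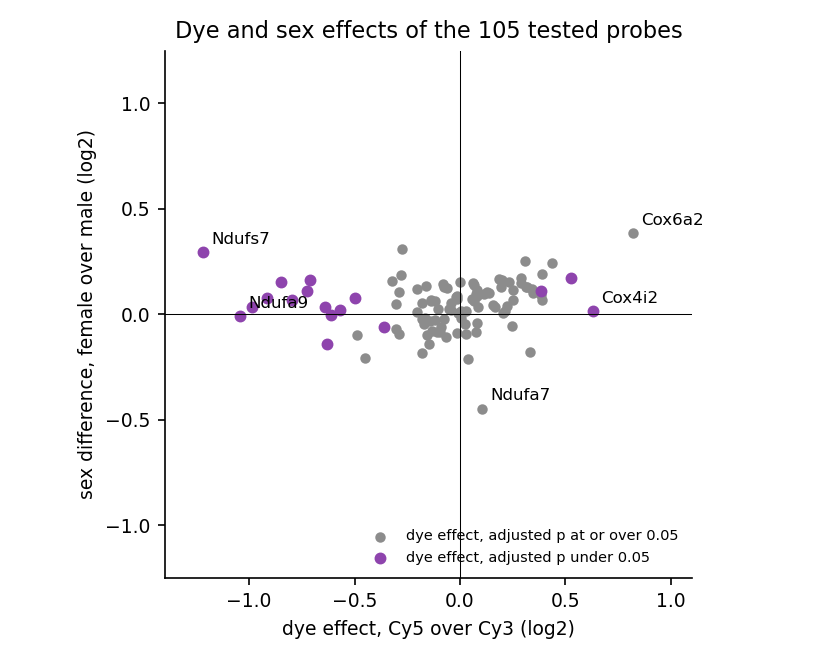
Each point is 1 of the 105 tested member probes, with its fitted dye effect (Cy5 over Cy3, log2) on the x axis and its fitted sex ratio (female over male, log2) on the y axis, both axes to the same scale. The dye effect reaches from -1.22 (Ndufs7) to 0.82 (Cox6a2), and purple points are the 17 with a dye adjusted p under 0.05.

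Probes of the same gene differed more in dye effect than in sex ratio, as did the members at large. Over the 17 genes with several tested probes, the spread between probes had a median of 0.43 for the dye effect and 0.06 for the sex ratio. The SD over all 105 member probes was 0.36 for the dye effect and 0.12 for the sex ratio. For 4 genes (Ndufs4, Ndufaf4, Atp5g2 and Atp5g3) the probes had sex ratios of opposite sign, and the Ndufaf4 probes below 0 were dim. The share of genes with opposite signs over the whole array was not counted. Ndufs5, a small subunit of complex I, had a dye effect of -0.91 ± 0.12 on the probe printed above and 0.39 ± 0.09 on its other probe, with sex ratios of 0.08 ± 0.12 and 0.19 ± 0.09. The Atp5l probe ending in the shared 20 bases had a dye effect of -0.71 ± 0.09 and the one that holds them near its beginning 0.25 ± 0.08. The Cox7a2 probes had -0.80 and 0.14, and the Ndufb10 probes -0.85 and -0.08. Base composition tracked the dye effect weakly: over the 105 member probes the correlation with the share of each base or of G and C was at most 0.13 in size.

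**Figure D4:**
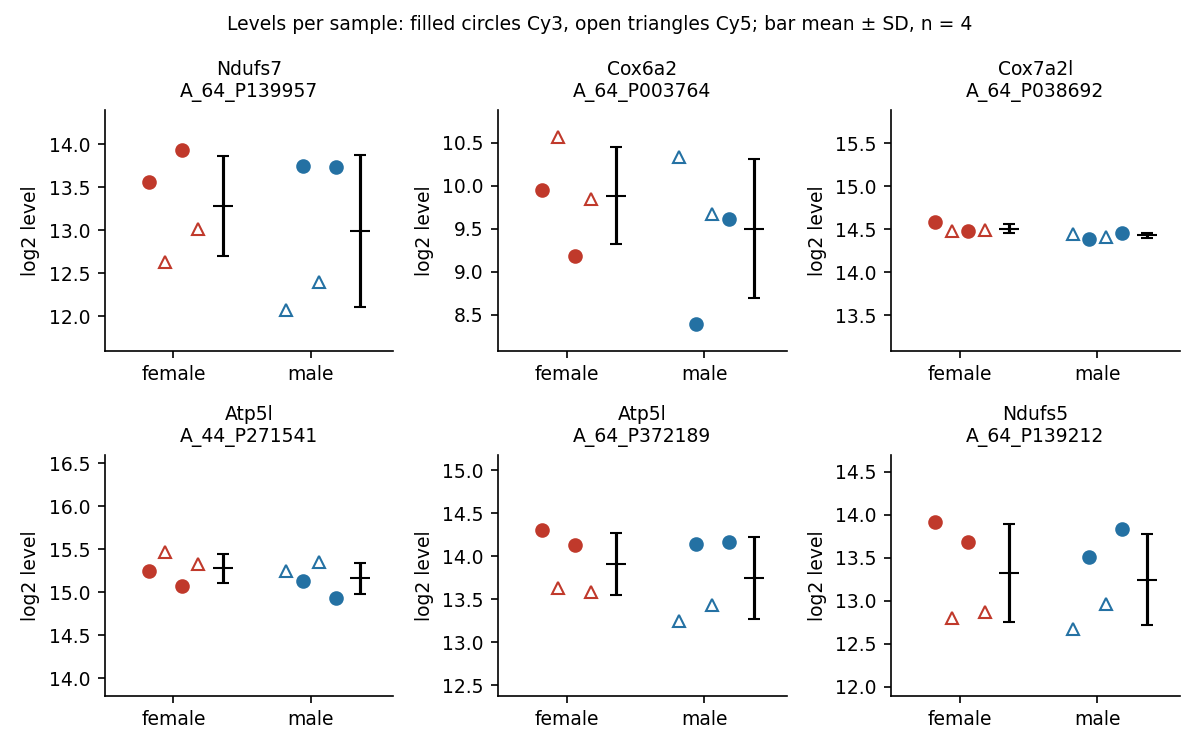
Log2 level of 6 member probes in each sample, females in red and males in blue, with filled circles for Cy3, open triangles for Cy5, and the mean ± SD (n = 4) beside each sex. The y axes span the same range in every panel. Ndufs7, Ndufs5 (A_64_P139212) and Atp5l (A_64_P372189) separate by dye, Cox6a2 has male 2 lowest at 8.40, and Cox7a2l varies by at most 0.05 (SD) within a sex.

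Some member genes carry more than 1 probe along the transcript with differing sex ratios. The 3 probes of Ndufv3, an accessory subunit with splice forms, had ratios of 0.31 ± 0.12 (A_42_P535085, unadjusted p = 0.0592), 0.04 ± 0.07 and 0.05 ± 0.07. The first read 11.02, 10.83, 11.01 and 10.64 in females and 10.38, 10.50, 10.48 and 10.91 in males, with male 4 alone inside the female range. The 2 probes of Ndufs4, a subunit of the peripheral arm whose loss causes Leigh syndrome, had ratios of -0.21 ± 0.15 and 0.01 ± 0.06. Without replicate 2 these differences between probes were smaller, with 0.16 ± 0.07 on the first Ndufv3 probe beside 0.0014 and -0.0068 on the others, and -0.01 ± 0.08 and 0.03 ± 0.07 on the Ndufs4 probes.

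Genes around the complexes were also without an adjusted call. Of the electron carrier genes, 13 were tested, with a median ratio of 0.05 and 0 at an unadjusted p under 0.05, against 8.5% of all probes. Of 30 assembly factors, with a median of 0.09, 1 was higher in females at that level, Sdhaf2 (0.21 ± 0.07), which helps insert flavin into Sdha. Of 17 tricarboxylic acid cycle and pyruvate dehydrogenase genes, with a median of -0.04, fumarase (Fh) was higher in females at 0.19 ± 0.06 and Dlat, the acetyltransferase of pyruvate dehydrogenase, lower at -0.29 ± 0.10. Of 12 regulators, with a median of 0.02, the transcription factor Yy1 was lower in females at -0.64 ± 0.15 (unadjusted p = 0.0123, adjusted p = 0.555). Its ratios on arrays 1 to 4 were 0.05, -0.83, -0.75 and -1.03. The 9 tested genes of carriers, uncoupling proteins and the ATP synthase inhibitor had a median of 0.01 and 0 at an unadjusted p under 0.05. For these surrounding genes, values without replicate 2 are not given.

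Promoter sequence was not used to choose the members. Promoters of 300 bases, from 250 before to 50 after the start, were taken from RefSeq (GRCr8) for 69 of 79 member genes, copies and renamed genes left out. They were searched on both strands for the core of the NRF1 site, GCGCANGCG, the ETS site bound by GABP, CCGGAAG, the YY1 site AAGATGGCG and the TATA box TATAAA. The NRF1 core can match both strands in overlapping letters, and a promoter with any match was counted once. NRF1 and GABP are regulators known from respiratory chain genes.

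The NRF1 core was present in 18 member promoters (26.1%), against 8.1% of all 19005 protein-coding promoters. The ETS site was in 21 (30.4%, against 11.2%) and the YY1 site in 9 (13%, against 2.3%), among them those of Ndufs7, Ndufa9 and Ndufb8. The letters of the TATA box were in 5 (7.2%, against 13.1%), counted at any position, and these matches lay at offsets from -209 (Ndufs6) to -39 (Cox8b). The NRF1 core or the ETS site was in 36 promoters (52.2%, against 17.6%). Both were in 3 (4.3%, against 1.7%), those of Ndufa6, Atp5i and Atp5l. Of the 9 YY1 matches, all on the gene's own strand, 7 (77.8%) began after the start, 4 to 26 bases from it, as did 66.9% of such matches over all promoters. A match of letters is a description and does not show binding. The windows below hold the NRF1 core in capitals, from a member of each of complexes I, II, III and V, and are written along the gene's strand.
Ndufs5, chr5:141264512-141264541, minus strand: gccgctggctGCGCAGGCGcaaaccgctct
Sdha, chr1:30764497-30764526, plus strand: ggagcgtgttGCGCAGGCGcagagccttcc
Uqcrc1, chr8:118468174-118468203, plus strand: actccaccctGCGCATGCGtagcgcggctt
Atp5i (Atp5me), chr14:1464774-1464803, plus strand: ttgcgctacgGCGCATGCGctttcctggct

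**Figure D5:**
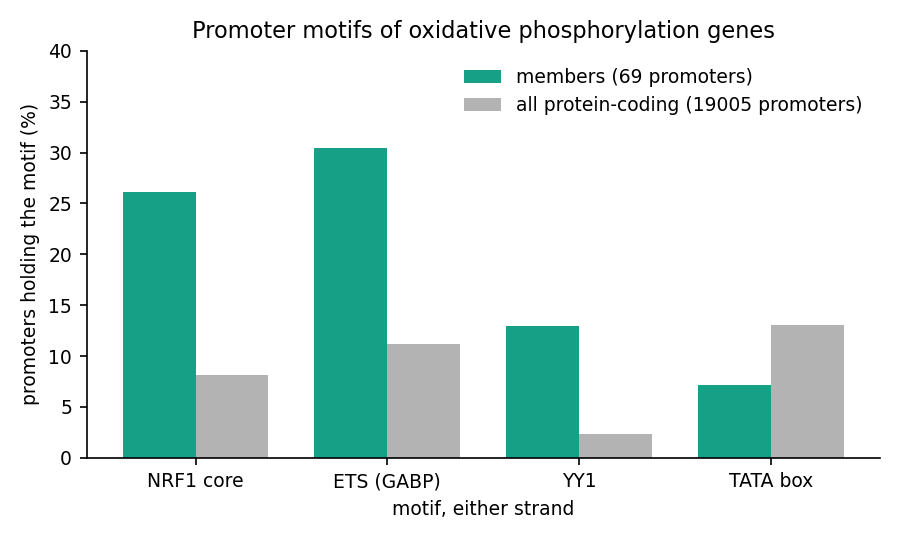
Bars give the share of promoters that hold each motif on either strand, for the 69 member promoters and for all 19005 protein-coding promoters, on a y axis in percent that starts at 0. The NRF1 core is at 26.1% against 8.1%, the ETS site at 30.4% against 11.2%, the YY1 site at 13% against 2.3% and the TATA box at 7.2% against 13.1%.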

How the data were processed

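Hypothalamic RNA of 4 females and 4 males was hybridised to 4 two-colour arrays on 1 slide. The submitters' processing notes name Agilent Feature Extraction 10.7.3.1 as the image software. Spot and background signals are unprocessed intensity values, per the file headers. The scanner software's own log ratio, red against green after its dye normalization, is on a log10 scale, per the file headers. The value table of the authors holds log2 values with a median of 0 in each column and served as an alternative.

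The mean signal of each spot was corrected by normexp (offset 50, local background median), and the ratios were then loess-normalized array by array, control spots having weight 0. Spots the scanner marked as outliers (931 to 1096 on an array) were dropped, and remaining spots of the same probe averaged. To be tested, a probe needed over 0.5 of its spots well above background in every sample of either sex. The log2 ratio was fitted in limma 3.58.1 (R 4.3.3, with the package data.table, version 1.17.8) with a term for sex and one for dye per probe, and p-values were adjusted over all 21995 probes (Benjamini-Hochberg, 0.05). Levels are log2 values after Aquantile normalization between arrays and are compared only between samples. The analysis was tested on simulated data. Figures used Python 3.11.15 with pandas 2.3.3, numpy 2.4.6 and matplotlib 3.10.9.

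Replicate numbers mark a shared array, per the labels, so the array is the block. After sex and dye were fitted, the deviations of the female and male of an array correlated at 0.57, 0.65, 0.41 and -0.05 for arrays 1 to 4, over probes. With 4 arrays, their number sets how precise a ratio can be.

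Current names were matched for 94 of the 109 member probes, and 108 have an rn4 position in the files. The members and lists were chosen with earlier results of these data known. Genes were named by rule: in complexes I, III, IV and V the 3 genes with the smallest unadjusted p in each direction at their brightest probe, every Sdh gene, tissue isoforms, X-linked members, the 3 largest dye effects each way, the 3 genes whose probes differed most, and members that passed in any alternative. Other genes serve as examples of the roles they hold, or were named after their values were seen. Alternatives tried were 14, covering the dye term, background correction, normalization, filter, outlier spots, the prior, the block and each replicate left out.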

Additional observations from a re-analysis of the deposited data

Results flagged for a closer look

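Of 100 groups of 4 samples checked, 4 had 1 sample far from the other 3. For independent samples of 1 normal distribution, chance gives about 1 in 20 such groups. The groups of levels mix both dyes and all groups share the same samples. That rate may therefore not hold, and nothing is concluded from the number. Ndufaf3, the complex I assembly factor, had a log2 level of 11.58 in male 2 (Cy3), with the other males at 12.32 to 12.33. Cox7c had a level of 10.84 in male 1 (Cy5), with the other males at 11.14 to 11.18. Cox7a2l had a level of 14.58 in female 1 (Cy3), with the other females at 14.48 to 14.49. The median deviation of complex IV was 0.15 in female 2 (Cy5), with the other females at -0.04 to -0.03. For Ndufaf3 the sample is the male whose region markers stood apart, with hypothalamus markers at -1.82 and cortex, hippocampus and striatum markers at 2.07. The part of that in the value was not tested.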

How the results depend on the processing

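The count of members at an adjusted p under 0.05 was 0 in every alternative that kept all 4 arrays, and ran from 0 to 1 when 1 replicate was left out, the 1 being Cox6a2 without replicate 4. The count at an unadjusted p was 1 and became 0 with no dye term, with median centring and in the authors' value table (99 probes), 2 with no background correction and with outlier spots kept, 3 with a trended robust prior, and 4 with the scanner's log ratio and with no filter on dim probes. It ran from 0 to 25 when 1 replicate was left out, 25 being without replicate 4, against 29.6% of all probes then called. Without the replicate block, on levels that ignore which samples shared an array, the pairing changed no adjusted call (0) and gave 3 at an unadjusted p. The median log2 ratio of the members was 0.02 to 0.06 over the alternatives with all arrays, and 0.0076 (without replicate 2) to 0.098 (without replicate 4) when 1 replicate was left out. The authors' value table moved the median of all probes to -0.06, with that of the members at 0.02. The cause was not tested. The members' levels were bright, with 104 of 109 well above background throughout. The 5 others were Ndufaf2, Ndufa13-ps, Cox8c, 1 Cox6c1 probe and 1 Ndufaf4 probe, of which only the last was tested.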
